A study of Ambystoma mexicanum with 8 samples.

Results

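Cartilage genes were followed through limb cells of the axolotl, Ambystoma mexicanum, sorted at a DNA content of 4C. The genes were chosen by symbol: COL2A1, COL11A1, COL9A1, COL9A2, ACAN, SOX9, MATN1, CNMD, HAPLN1 and COMP. Of these 10 symbols, 9 stood last in the name of at least 1 identifier, giving 13 identifiers of the 60956 in the gene list, and COMP stood in none. COL11A1 is carried by 4 identifiers (AMEX60DDU001010640, AMEX60DD018809, AMEX60DD031831 and AMEX60DD050843) and ACAN by 2 (AMEX60DD004178 and AMEX60DD007108). The name of COL11A1 AMEX60DD050843 also holds COL27A1, and a second row of the gene list gives the same identifier the name COL5A3, so that its identity is uncertain. COL11A1 AMEX60DDU001010640 and AMEX60DD031831 share a compound name, and reads split between copies cannot be told apart here. The other identifiers are COL2A1 AMEX60DD029426, COL9A1 AMEX60DD033568, COL9A2 AMEX60DD006010, SOX9 AMEX60DD031236, MATN1 AMEX60DD005459, CNMD AMEX60DD048972 and HAPLN1 AMEX60DD042501. The name of MATN1 AMEX60DD005459 also holds more than this symbol, so that its identity is less certain.

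The study holds 8 droplet libraries of wild-type limb tissue, 4 named Contra (numbers 1, 2, 3 and 5) and 4 named Intact (numbers 1, 3, 4 and 5). The design text sets systemically activated limbs, taken 14 days after an amputation, against homeostatic limbs, and Contra was taken for the activated and Intact for the homeostatic limbs. The labels do not spell these names out, and give neither age nor sex nor the animals behind a library, so that p-values measure the spread between libraries. All libraries share the dissociation, the viability stains and the 4C gate, which a cell after DNA replication passes and a pair of stuck 2C cells can pass too.

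A minimum of 500 genes per cell kept 33860 of 34149 cells, 22938 of Contra and 10922 of Intact. The kept UMIs (molecules counted once each) of a library ran between 39647199 and 99724949 in Contra, and between 13321764 and 68972314 in Intact. Median UMIs per cell ran between 4860.5 and 12219 in Contra, and between 4142.5 and 15398.5 in Intact. Connective tissue-like cells made up 55.4%, 46.2%, 56.5% and 24.7% of the cells of Contra 1, 2, 3 and 5, and 16.6%, 58.4%, 15.6% and 14.3% of those of Intact 1, 3, 4 and 5. Intact 3 stands apart from the other Intact libraries in this mix and in depth. The difference between groups, 45.7% ± 14.7 in Contra and 26.2% ± 21.5 in Intact (SD, n = 4 each), had p = 0.229 in a two-sided exact permutation test, whose smallest possible p is 0.0286. Libraries shared 135 barcode sequences, held by 270 cells.

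In vertebrate cartilage, chondrocytes lay down a matrix of collagen and proteoglycan. Type II collagen (COL2A1) forms the fibrils, type XI (COL11A1) sits within them and type IX (COL9A1, COL9A2) on their surface. Aggrecan (ACAN) holds water and is tied to hyaluronan by the link protein HAPLN1, MATN1 is a matrilin that bridges matrix parts, CNMD (chondromodulin) is a membrane-derived inhibitor of vessel growth, and SOX9 is the transcription factor that drives many of these genes. In salamander limbs the skeleton begins as cartilage, and part of it is later replaced by bone.

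The 13 identifiers were not carried by one population. COL2A1 and COL11A1 AMEX60DD018809 peaked together in 88 bone-like cells, which held almost no other cartilage gene. These cells held 56.6% of all COL2A1 UMIs and 19.97% of those of COL11A1 AMEX60DD018809. By library, their share of COL2A1 UMIs ran between 0.529% in Contra 2 and 70.7% in Intact 3. A separate 39 cells were picked, after the values were seen, for UMIs of at least 4 of 7 cartilage identifiers. Of these cells, 39 held ACAN AMEX60DD004178, 36 held COL9A2, 32 held COL2A1 and 32 held CNMD. These identifiers were among the 7, so that their meeting in these cells was fixed in part by the choice. Among whole clusters, SOX9 was highest in epidermal-like ones, HAPLN1 and CNMD were highest in endothelial-like ones, and ACAN AMEX60DD007108 was highest in connective clusters led by JCHAIN or PTX3. No identifier differed between Contra and Intact past the threshold. The all-cell test called only 7 of 100 simulated 2-fold changes, so that differences of that size are not excluded.

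**Figure D1:**
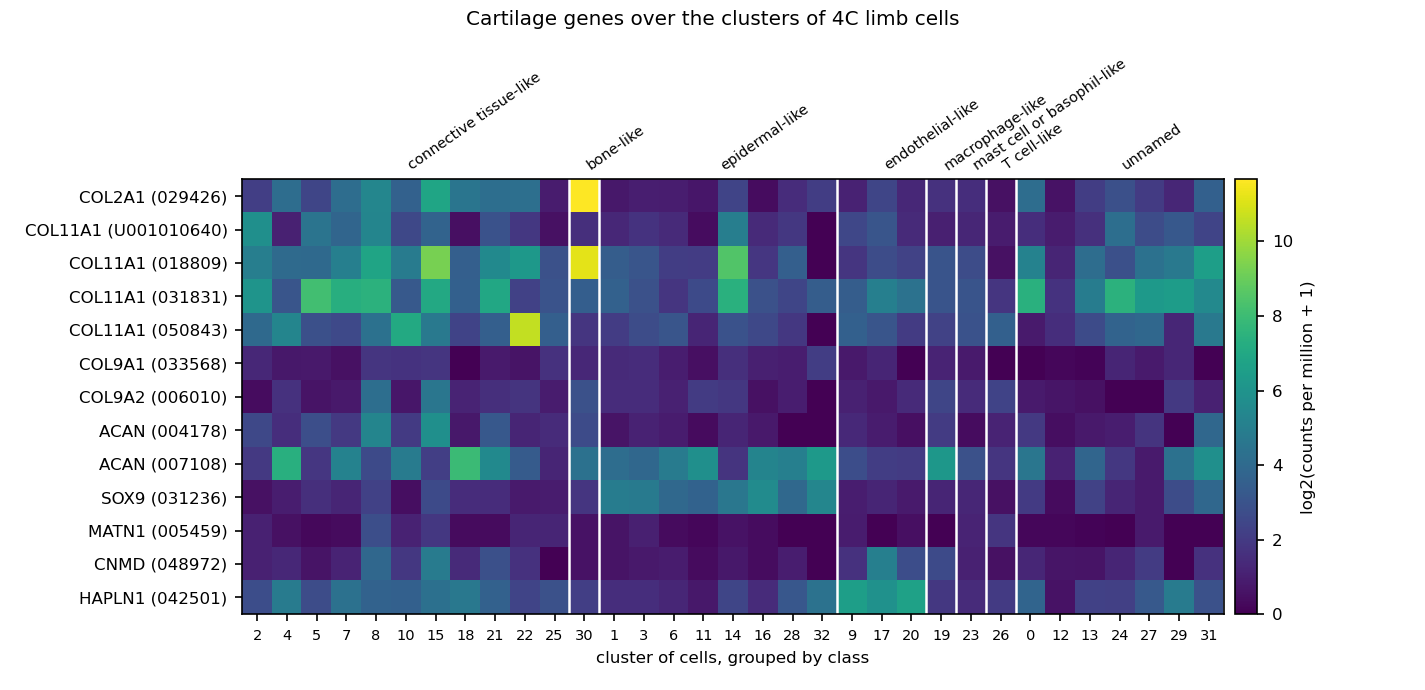
Level of each cartilage identifier (rows, with the end of its identifier) in each of 33 clusters of cells (columns, grouped by class), as log2(CPM + 1) of the summed UMIs, where CPM are UMIs scaled to a common total. COL2A1 reached 3248 CPM in cluster 30, the bone-like cluster, and 117 in the next cluster, 15, while SOX9, HAPLN1 and ACAN AMEX60DD007108 were highest in other clusters.

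Cells were clustered without the 35 identifiers of the cartilage genes, of related cartilage matrix genes and of cartilage markers, so that these did not shape the clusters. Of 33 clusters, 30 took COL2A1 to its highest level, 3248 CPM (UMIs scaled to a common total per library, class or cluster), and cluster 15 followed with 117 CPM. The median over clusters was 3.31 CPM. Cluster 30 was bone-like by its markers: BGLAP (osteocalcin, a bone matrix protein) had 2131 CPM against at most 1.72 in any other cluster, SP7 (a transcription factor of osteoblasts) 405 against 125, and PHEX AMEX60DD048470 (a peptidase of bone cells) 352 against 50.8. ALPL, a phosphatase of mineralizing cells, was low there, at 3.44 CPM. Its 88 cells were deep, with a median of 20154.5 UMIs against 9174 over all cells, and 3 of them were among the 1361 cells with the highest doublet scores.

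Type I collagen was at its highest level in the same cluster. COL1A1 had 200036 CPM in cluster 30 and 79096 CPM in the next. Per 1000 COL1A1 UMIs, cluster 30 held 16.2 COL2A1 UMIs, and the other clusters held between 0.0110 and 4.38, so that COL2A1 was also highest in relation to COL1A1. For COL11A1 AMEX60DD018809 the same ratio was 11.5 in cluster 30, against 31.0 in epidermal-like cluster 14 and 22.9 in cluster 15.

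Within cluster 30, 75 of 88 cells had a COL2A1 UMI, 84 had a UMI of COL11A1 AMEX60DD018809, and 74 had both. The median cell held 28.5 COL2A1 UMIs and 39 of that COL11A1 identifier. No other cartilage identifier passed 10 of the 88 cells. ACAN AMEX60DD004178 had UMIs in 10 cells (5.41 CPM), COL9A2 in 6 (6.396 CPM), SOX9 in 4, COL9A1 in 3, and CNMD and MATN1 in 1 each. A single cell gave all 39 UMIs of ACAN AMEX60DD007108 in the cluster. Fibrillar collagens II and XI were thus frequent in these cells, and the type IX collagens, aggrecan and chondromodulin were rare. Connective tissue-like cells outside the 39 had low levels too. They had 1.68 CPM for COL9A2, 0.921 for COL9A1, 6.21 for ACAN AMEX60DD004178 and 1.90 for CNMD. In cluster 30, COL9A1 had 1.48 CPM and CNMD 0.492 CPM. The rarity of type IX collagens and aggrecan was thus not particular to the bone-like cells. BGLAP itself was in 36 of the 88 cells and SP7 in 77.

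At an even depth of 2000 UMIs drawn from each cell, COL2A1 was found in 66 of 81 bone-like cells, or 81.5% (95% exact interval 71.3 to 89.2), against 90.1% with all UMIs. Connective tissue-like cells had a share of 2.69%. The endothelial-like share was 0.404% and the epidermal-like one 0.286%, in classes not known for this gene. All UMIs gave 13.7%, 1.66% and 0.731% in these 3 classes, at median depths of 14141.5, 9139.5 and 5073 UMIs. ACAN AMEX60DD004178, COL9A1, COL9A2, SOX9, MATN1, HAPLN1 and COL11A1 AMEX60DD050843 were in 0 of the 81 drawn bone-like cells, which allows up to 3.7% of cells with a UMI at that depth, and not a limit on cells that express the gene. With all UMIs of the same cells, these 7 shares ran between 1.23% for MATN1 and 12.3% for ACAN AMEX60DD004178. Intervals and this limit, which stands for 3 counts, cover counting error only.

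Related genes were ranked by where their UMIs lay. By share of their UMIs in cluster 30, the 8 highest of 131 related identifiers with at least 100 UMIs were BGLAP (96.1%), SPP1 AMEX60DD043905 (osteopontin, 57.9%), RUNX2 AMEX60DD032921 (a regulator of osteoblasts and late chondrocytes, 23.9%), SP7 (17.6%), PHEX AMEX60DD048470 (17.3%), CHSY1 (a chondroitin synthase, 10.8%), CHST11 (a chondroitin sulphotransferase, 9.19%) and RUNX2 AMEX60DD032922 (8.23%). Cluster 30 was at least 4-fold above the other connective tissue-like cells for 7 of 12 identifiers of the hypertrophy and bone list for 6 of 18 of the chondrocyte regulators and for 1 of 21 of the cartilage matrix list, against 1.14% of all 35165 identifiers with at least 100 UMIs. The medians of the log2 ratio were 1.76 for the hypertrophy and bone list, 0.28 for the chondrocyte regulators, -0.84 for the cartilage matrix list and -0.64 over all identifiers. These lists are a description, with no test, since the cells were grouped by their expression. BGLAP, SP7 and PHEX AMEX60DD048470 gave the cluster its bone-like name and are also in the hypertrophy and bone list. That list's count and the ranking are thus not independent of the name. MMP13 AMEX60DD049488, counted in the same list, rested on 6 UMIs in 2 cells of the cluster.

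The pattern over clusters most like that of COL2A1 was that of DLX6 (Pearson r = 0.87 of log2(CPM + 1) over 33 clusters, among 19853 identifiers with a symbol), a homeobox gene of skeletal development. PRSS35 (0.84), CGREF1 (0.83), DIPK1B (0.83) and PLTP (0.83) followed. All 5 were highest in cluster 30, PRSS35 at 887 CPM and CGREF1 at 666 CPM, and the clusters share libraries.

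The bone-like cells were few and unevenly spread over libraries. Contra 1, 2, 3 and 5 held 8, 2, 39 and 6 of them, and Intact 1, 3, 4 and 5 held 1, 22, 2 and 8. As a share of cells this was 0.216% ± 0.219 in Contra and 0.265% ± 0.239 in Intact (SD, n = 4 each; two-sided exact permutation p = 0.886). Contra 3 and Intact 3 were the 2 libraries that reached the minimum of 10 such cells set for a test, 1 in each group, and levels within the cluster were not tested. COL2A1 had 4033, 478, 2840 and 1142 CPM in the bone-like cells of Contra 1, 2, 3 and 5, against 2060, 4022, 879 and 754 CPM in those of Intact 1, 3, 4 and 5. COL11A1 AMEX60DD018809 had 2424, 3154, 2319 and 2876 CPM in Contra, against 1030, 2182, 2637 and 1974 CPM in Intact. Both groups overlapped for each gene, and the Intact 1 values rest on 2 UMIs and 1 UMI of a single cell.

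A second set of cells was described by counting identifiers per cell, and was defined after the values were seen. Of 7 identifiers (COL2A1, COL9A1, COL9A2, ACAN AMEX60DD004178, SOX9, MATN1 and CNMD), 5067 cells held UMIs of 1, 509 of 2, 64 of 3 and 39 of at least 4. None of the 39 was in the bone-like cluster. Connective tissue-like cluster 15, led by CILP2, ASPN and the tendon gene TNMD, held 20, and cluster 8, led by SMOC1 and COL21A1, held 14. Cluster 15 had 13 of 15 connective, 5 of 5 tendon and 4 of 7 cartilage markers raised, and took its name by the rule for connective clusters. All 8 libraries had cells of this set: 8, 5, 7 and 11 in Contra 1, 2, 3 and 5, and 1, 4, 2 and 1 in Intact 1, 3, 4 and 5. As shares of kept cells these were 0.172%, 0.0808%, 0.0955% and 0.231% in Contra. In Intact they were 0.0625%, 0.0965%, 0.0626% and 0.0504%, so that the groups overlapped. All UMIs of a cell were counted, with no even depth. The median depth of the 39 cells was 9716 UMIs, and 1 of them was among the cells with the highest doublet scores.

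**Figure D2:**
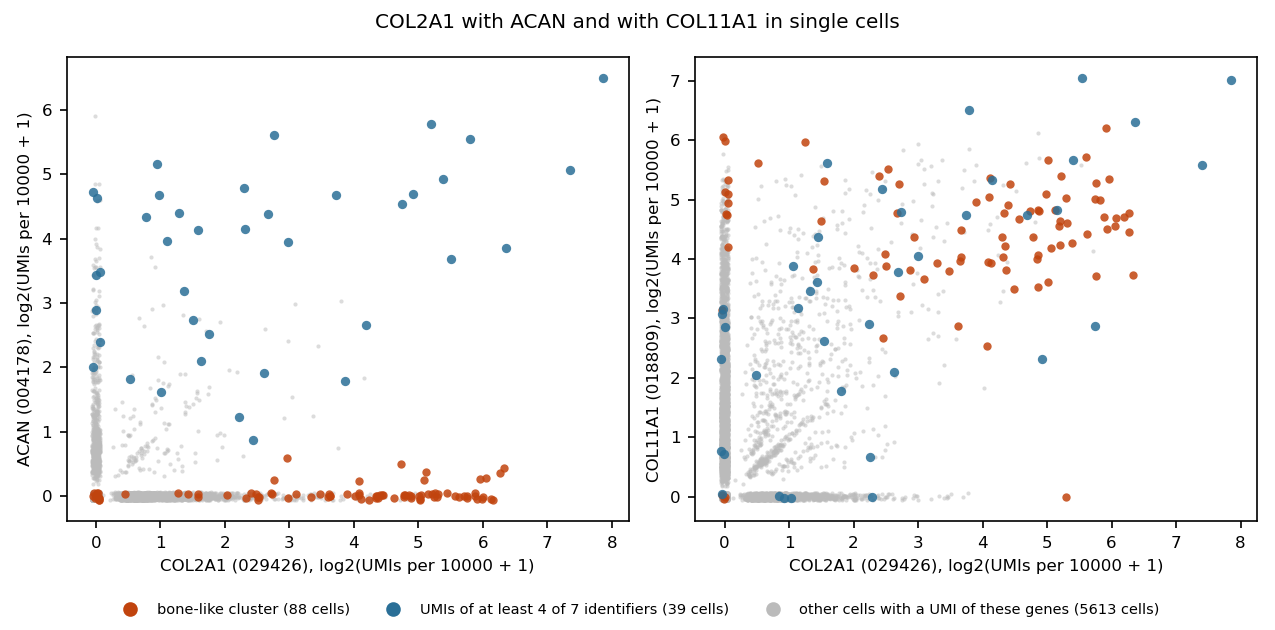
COL2A1 against ACAN AMEX60DD004178 on the left and against COL11A1 AMEX60DD018809 on the right, each point 1 cell with a UMI of these genes, in log2(UMIs per 10000 UMIs + 1) with a small random shift so that points can be told apart. The 88 bone-like cells lie along the COL2A1 axis on the left, with ACAN UMIs in 10 of them, and rise with COL11A1 on the right, while all 39 cells with UMIs of at least 4 of 7 identifiers hold ACAN.

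These 39 cells held ACAN AMEX60DD004178 in all 39, COL9A2 in 36, COL2A1 in 32, CNMD in 32, SOX9 in 24, COL9A1 in 15 and MATN1 in 6. Their levels, which the choice of these cells fixes in part, were 1714 CPM for ACAN AMEX60DD004178, 1244 CPM for CNMD and 100.3 CPM for SOX9. The set held 42.4% of all COL9A2 UMIs and 40.8% of all CNMD UMIs, but 1.82% of those of SOX9. The identifiers not used to pick them divided. COL11A1 AMEX60DD018809 was in 34 of the 39 at 1871 CPM, against 68.3 CPM in the other connective tissue-like cells. Cluster 15 as a whole, which holds 20 of the 39, had 611 CPM of it. HAPLN1 was in 26 of the 39 at 277 CPM, against 14.8 CPM in the other connective tissue-like cells. ACAN AMEX60DD007108 was in none of the 39, against 57.5 CPM in the other connective tissue-like cells. COL11A1 AMEX60DD031831 had 23.9 CPM in the 39 cells and 113 CPM in the others. COL11A1 AMEX60DD050843 had 50.1 CPM against 54.8 CPM, and COL11A1 AMEX60DDU001010640 had 9.55 CPM against 16.7 CPM. Of the COL11A1 identifiers, AMEX60DD018809 was thus higher in these cells and the others were not. The ACAN contrast is fixed in part by the choice of cells. ACAN AMEX60DD004178 was used to pick them, and was taken because its highest cluster differed from that of AMEX60DD007108.

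The related lists differed among themselves in the 39 cells. At least 4-fold higher than in the other connective tissue-like cells were 12 of 21 cartilage matrix, 10 of 18 chondrocyte regulator, 4 of 10 tendon and ligament and 5 of 25 glycosaminoglycan synthesis identifiers, against 3.13% of all 35165 identifiers. Collagen processing had 1 of 25, cartilage degradation 1 of 20 and hypertrophy and bone 1 of 12. Some of these rested on few UMIs in the 39 cells, among them COL11A2 on 4 and THBS4 AMEX60DD042298 on 3. The hypertrophy and bone identifier was MMP13 AMEX60DD049488, with 3 UMIs in 2 cells. The cells were picked by cartilage identifiers, so that these counts are a description, with no test. The comparison pools all other connective tissue-like cells, and not those of clusters 15 and 8 alone, where most of the 39 lie. The median log2 ratio was 2.13 for cartilage matrix 1.94 for chondrocyte regulators, 0.009 for hypertrophy and bone and -0.36 for cartilage degradation, against -0.11 over all identifiers. Named after their values were seen, COL9A3, the third chain of type IX collagen, had 449 CPM in the 39 cells and 1.57 CPM in the other connective tissue-like cells. SOX5 and SOX6, partners of SOX9 in cartilage, had 602 and 377 CPM in the 39 cells, against 21.4 and 7.24 CPM. EPYC, a small proteoglycan of cartilage, had 167 CPM against 2.42 CPM, and UCMA, a protein of the cartilage matrix, had 704 CPM against 30.8 CPM. PRG4, the lubricin of joint surfaces, had 368 CPM against 10.2 CPM, and GDF5, a growth factor of forming joints, had 105 CPM against 1.81 CPM. Other identifiers of the same lists were lower in the 39 cells. Among them were HAPLN3 (33.4 against 86.7 CPM), MIA (47.7 against 61.0 CPM) and PTH1R (265 against 642 CPM). BGLAP and SP7 had 2.39 CPM each, which is 1 UMI in all 39 cells together.

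The UMIs of SOX9, HAPLN1, ACAN AMEX60DD007108 and the remaining COL11A1 identifiers lay mainly outside both sets. To a lesser degree this held for every other cartilage identifier except COL2A1. COL11A1 AMEX60DD018809 had 19.97% of its UMIs in the bone-like cluster and 3.35% in the 39 cells. For ACAN AMEX60DD004178 these shares were 0.505% and 32.9%, and for COL9A2 1.21% and 42.4%. SOX9 had 49.0 CPM in epidermal-like cluster 16, 39.7 in cluster 32 and 28.4 in cluster 1. At 2000 UMIs it was in 5.29% of epidermal-like cells (4.83 to 5.78), against 0.334% of connective tissue-like and 0.224% of endothelial-like cells. With all UMIs these shares were 13.6%, 2.03% and 1.03%. The 5 patterns most like SOX9 over clusters were DSC2 (a desmosomal cadherin, r = 0.94), PEBP1 (0.93), TJP3 (a tight junction protein, 0.93), FAM83A (0.92) and MARVELD3 (0.92), all highest in epidermal-like clusters.

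HAPLN1 had 101, 91.5 and 59.6 CPM in the endothelial-like clusters 20, 9 and 17, and 28.0 CPM in the next, unnamed cluster 29. At 2000 UMIs it was in 12.7% of endothelial-like cells (11.3 to 14.1), 2.58% of connective tissue-like and 0.366% of epidermal-like cells, and with all UMIs in 36.4%, 14.2% and 1.49%. CNMD was nearly level between endothelial-like cluster 17, at 31.6 CPM, and connective cluster 15, at 27.6 CPM. The share of cells with a CNMD UMI at 2000 UMIs was 1.61% in endothelial-like, 0.512% in connective tissue-like and 0.0914% in epidermal-like cells.

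ACAN AMEX60DD007108 had 243 CPM in connective cluster 18 and 165 CPM in cluster 4, where it was found in 1240 of 2334 cells. Lower levels lay in epidermal-like cluster 32 (76.1 CPM), macrophage-like cluster 19 (70.4 CPM) and unnamed cluster 31 (55.2 CPM). At 2000 UMIs it was in 9.55% of macrophage-like cells (7.19 to 12.4), 6.12% of connective tissue-like, 4.54% of epidermal-like and 0.448% of endothelial-like cells, and with all UMIs in 36.5%, 16.7%, 12.9% and 2.51%. ACAN AMEX60DD004178 was instead highest in clusters 15 (55.8 CPM) and 8 (38.1 CPM). COL11A1 AMEX60DD050843 had 1567 CPM in connective cluster 22 and 137 CPM in cluster 10, and 49.6% of its UMIs were in cluster 22. COL11A1 AMEX60DD031831 was broadest, in 26.5% of all cells, and highest in connective cluster 5 (278 CPM). COL11A1 AMEX60DDU001010640 peaked in cluster 2 (54.5 CPM). COL11A1 AMEX60DD018809 had 611 CPM in cluster 15 and 360 CPM in epidermal-like cluster 14, besides 2296 CPM in the bone-like cluster.

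COL9A1 and MATN1 were rare everywhere. COL9A1 had 356 UMIs in 326 cells and at most 3.31 CPM in a cluster, there from 1 cell. MATN1 had 274 UMIs in 183 cells, of which 42 came from a single cell of Contra 5 in cluster 8. The order of clusters was not read for either gene.

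Pairs of identifiers were counted in the 30630 cells with at least 2000 UMIs, each at 2000 drawn UMIs. The cells left out were 2055 of Contra and 1175 of Intact. The expected number is the product of the 2 single shares within each library, summed. COL9A2 and CNMD met in 25 cells against 0.490 expected, COL9A2 and ACAN AMEX60DD004178 in 32 against 0.784, and ACAN AMEX60DD004178 and CNMD in 29 against 0.806. These pairs came from 6, 7 and 7 of the 8 libraries. With the product taken within library and cluster, the expected numbers were 1.37, 2.86 and 2.63, so that cluster membership left the pairs above it.

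COL2A1 and COL11A1 AMEX60DD018809 met in 205 cells against 28.0 expected within libraries. Within library and cluster 131 were expected, so that most of this pairing lay between clusters. Of cells with COL2A1, 38.8% had this COL11A1 identifier. COL2A1 met COL9A2 in 17 cells against 1.97 expected, and CNMD in 16 against 2.14. ACAN AMEX60DD007108 met several others less often than expected: COL9A2 in 1 cell against 5.62, ACAN AMEX60DD004178 in 3 against 9.35, and COL11A1 AMEX60DD031831 in 52 against 155. COL11A1 AMEX60DD031831 and AMEX60DD050843 met in 39 cells against 101 expected. Within library and cluster the expected numbers of these 4 pairs were 5.41, 5.35, 80.8 and 50.2, so that, except for COL9A2, much of the shortfall lay between clusters.

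**Figure D3:**
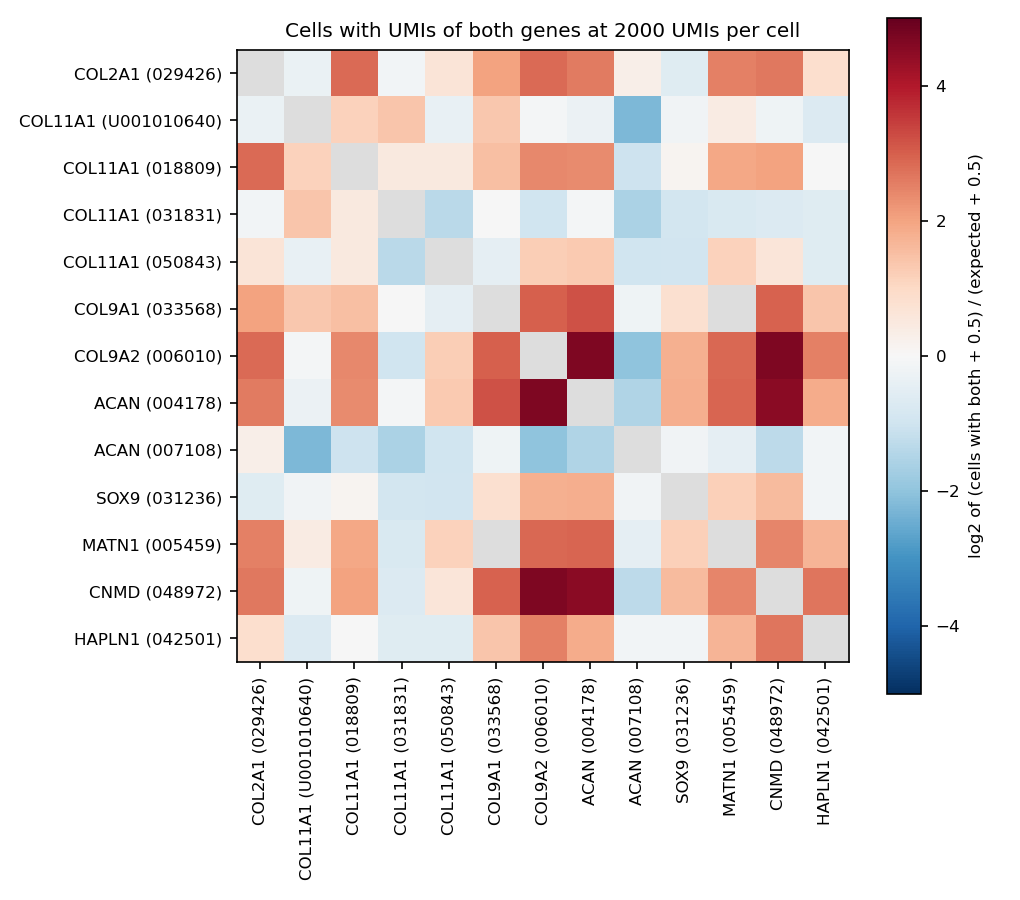
Cells holding UMIs of both identifiers of a pair at 2000 UMIs per cell, as log2 of the count over the number expected within libraries, with 0.5 added to both; grey marks the diagonal and pairs with fewer than 0.1 expected. COL9A2, ACAN AMEX60DD004178 and CNMD form the darkest block, with 25 to 32 cells against less than 1 expected, and ACAN AMEX60DD007108 is pale or blue with most others.

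At least 3 of the 9 symbols were found in 70 of the 30630 drawn cells, and 2 cells held all 9. Cluster 15 gave 31 of the 70, cluster 8 gave 20 and the bone-like cluster 2. The share of cells was 0.254%, 0.228%, 0.203% and 0.355% in Contra 1, 2, 3 and 5, and 0%, 0.231%, 0.251% and 0.124% in Intact 1, 3, 4 and 5. The 0 of 1450 cells in Intact 1 allows up to 0.207% at this depth, and with all UMIs 30 of the same cells, or 2.07%, held at least 3. The groups overlapped, with means of 0.260% ± 0.0666 in Contra and 0.151% ± 0.115 in Intact (SD, n = 4 each), and no test was made of this score.

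Contra was compared with Intact on UMIs summed per library, first over all cells. Of 37305 identifiers tested with edgeR's quasi-likelihood test, 0 passed an adjusted p of 0.05 (0% called). At an unadjusted p under 0.05 there were 2795, or 7.49%, and 0 of the 13 cartilage identifiers. DESeq2 called 15 of the same identifiers, none of them a cartilage gene. In 10 of 13 the fitted log2 difference was above 0, with a median of 0.61 against -0.01 over all identifiers. No cartilage identifier had every Contra library above every Intact library, which 1.89% of all identifiers had, or every one below, which 1.36% had.

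COL2A1 had 28.2, 13.7, 46.7 and 17.6 CPM in Contra 1, 2, 3 and 5, against 2.39, 50.5, 3.91 and 7.43 CPM in Intact 1, 3, 4 and 5. Intact 3 was higher than every Contra library, and the other Intact libraries were lower than every Contra library. The log2 difference was 0.76 ± 0.88 (SE; edgeR adjusted p = 0.734). The bone-like cells held 52.7%, 0.529%, 68.9% and 4.17% of the COL2A1 UMIs of Contra 1, 2, 3 and 5, and 4.08%, 70.7%, 9.71% and 21.2% of those of Intact 1, 3, 4 and 5. With these cells left out, COL2A1 had 13.4, 13.6, 14.7 and 16.8 CPM in Contra, against 2.30, 14.9, 3.53 and 5.87 CPM in Intact. The 2 groups still overlapped through Intact 3, which also has the Intact group's highest share of connective tissue-like cells. The part of that mix in the all-cell values was not tested.

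**Figure D4:**
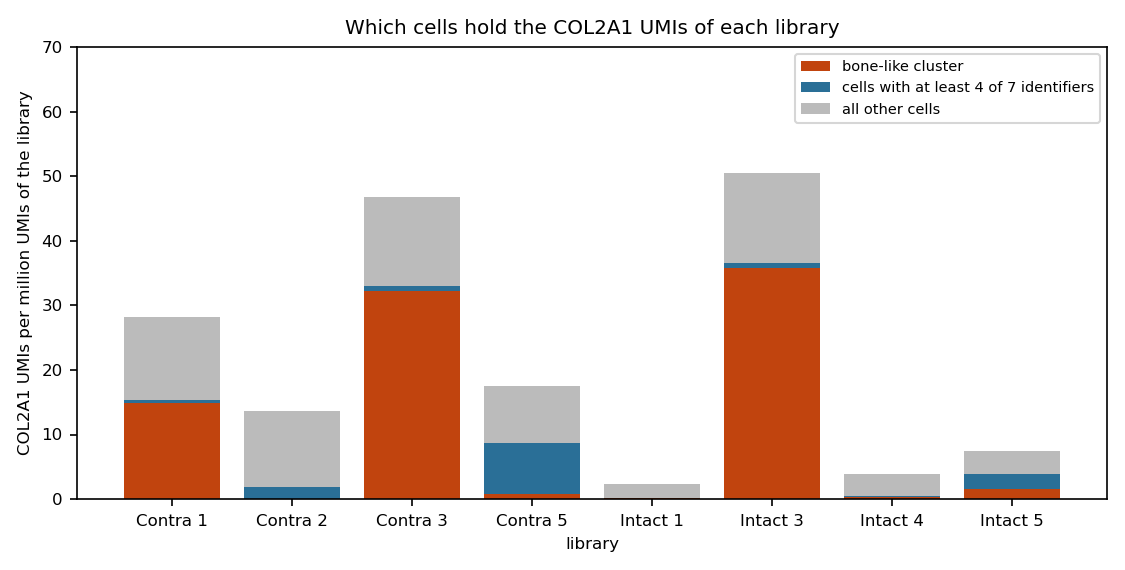
COL2A1 level of each library in CPM, with the bars divided into UMIs from the bone-like cluster, from the 39 cells with at least 4 of 7 identifiers, and from all other cells. The bone-like part is the largest in Contra 1, Contra 3 and Intact 3, and the 3 other Intact libraries stay under 8 in all.

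HAPLN1 and a pair of COL11A1 identifiers shared this arrangement. HAPLN1 had 16.6, 13.7, 17.5 and 12.4 CPM in Contra 1, 2, 3 and 5, against 5.18, 18.3, 7.86 and 4.65 CPM in Intact 1, 3, 4 and 5 (log2 difference 0.70 ± 0.40, adjusted p = 0.516). COL11A1 AMEX60DD031831 had 88.5, 90.4, 89.1 and 54.8 CPM in Contra, against 23.5, 94.6, 45.1 and 37.5 CPM in Intact (0.67 ± 0.35, adjusted p = 0.514). COL11A1 AMEX60DDU001010640 had 13.5, 11.02, 9.70 and 8.30 CPM in Contra, against 2.15, 11.3, 6.57 and 7.58 CPM in Intact (0.61 ± 0.34, adjusted p = 0.514). In each of these, Intact 3 lay within or above the Contra range and the other Intact libraries below it. Without Intact 3, edgeR called 5655 of 36162 identifiers, among them COL2A1 (log2 difference 2.57, adjusted p = 0.0191), HAPLN1 (1.26, adjusted p = 0.0136) and COL11A1 AMEX60DD031831 (1.14, adjusted p = 0.0121). That fit compares libraries whose mix of cells differs further, since the Intact libraries left have 14.3% to 16.6% connective tissue-like cells.

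**Figure D5:**
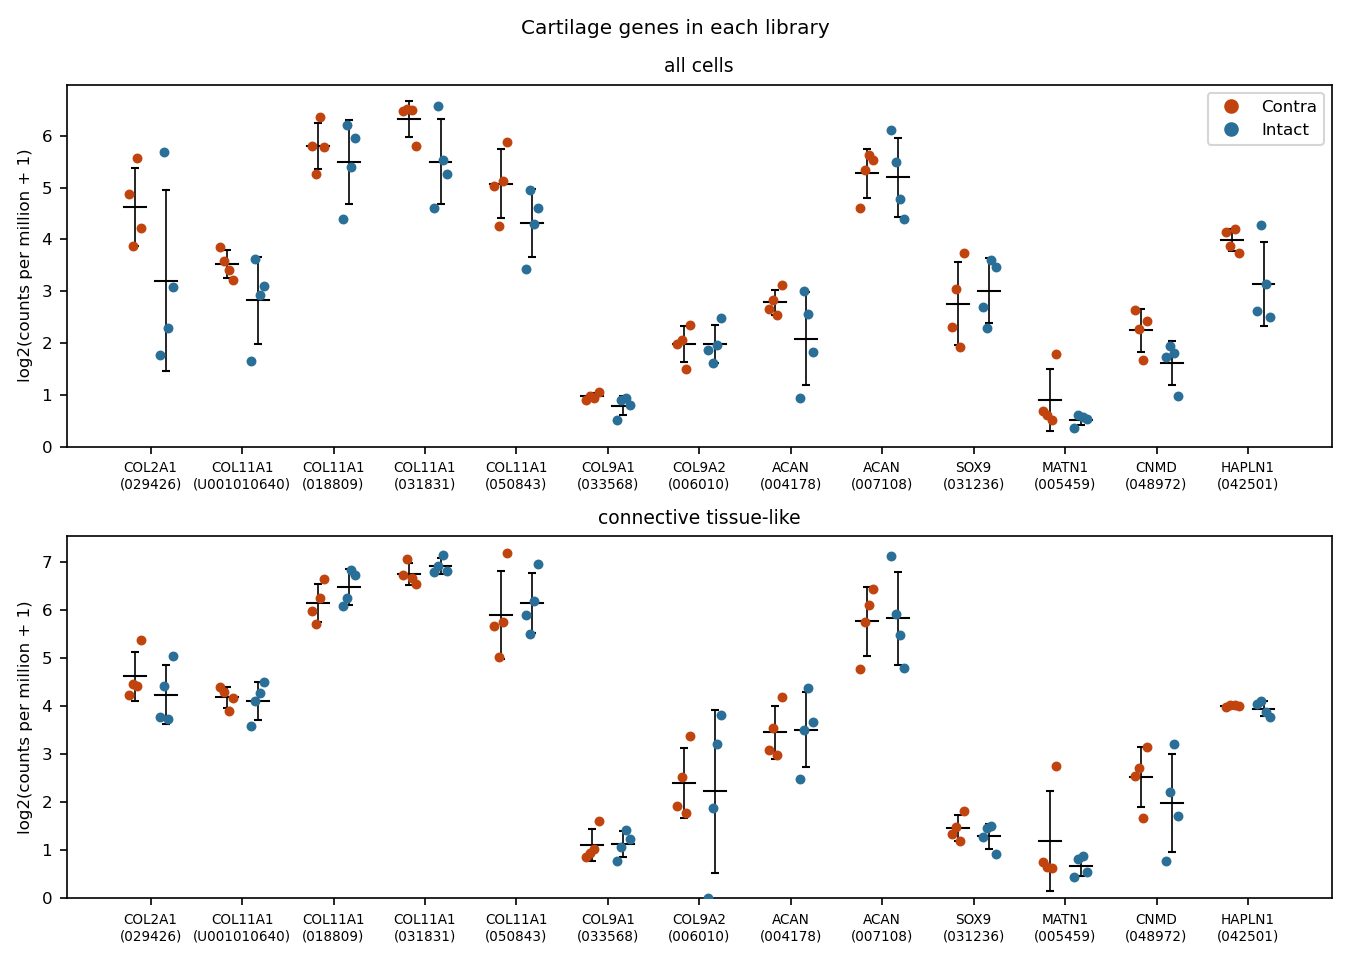
Each cartilage identifier in each library, as log2(CPM + 1), for all cells (upper panel) and connective tissue-like cells (lower panel). Points are libraries, Contra left of Intact, and bars are mean and SD of 4 libraries on this scale. The groups overlap for every identifier in both panels.

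The remaining identifiers differed by less than the threshold in all cells as well. COL11A1 AMEX60DD050843 had a log2 difference of 0.81 ± 0.39 (adjusted p = 0.514), CNMD 0.71 ± 0.36 (0.514), MATN1 1.03 ± 0.64 (0.526), ACAN AMEX60DD004178 0.61 ± 0.45 (0.577) and COL11A1 AMEX60DD018809 0.25 ± 0.35 (0.788). COL9A1 averaged 0.964 ± 0.0884 CPM in Contra and 0.743 ± 0.213 CPM in Intact (SD, n = 4 each; adjusted p = 0.535). Below 0 were SOX9 (-0.23 ± 0.49, adjusted p = 0.877), ACAN AMEX60DD007108 (-0.17 ± 0.49, adjusted p = 0.920) and COL9A2 (-0.035 ± 0.29, adjusted p = 0.981). ACAN AMEX60DD007108 differed by -0.83 between Contra and Intact among the libraries numbered 1 and 3, and by 0.95 among the others. The labels do not give this split of the numbers, and each part holds few libraries.

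Within connective tissue-like cells, which leave out the bone-like cluster, the tilt toward Contra was not seen. Of 31967 identifiers tested 0 were called (0% called), 2098 (6.56%) had an unadjusted p under 0.05, and neither count held a cartilage identifier. DESeq2 called 31, none of them a cartilage gene. The median log2 difference of the 13 identifiers was 0.02, against 0.003 over all identifiers, with 7 above and 6 below 0. None had every Contra library above or below every Intact library, against 2.85% and 2.14% of all identifiers. In epidermal-like cells, 4 of 8 cartilage identifiers tested were above 0, with a median of 0.04, against -0.02 over all identifiers. In endothelial-like cells, 5 of 5 tested were above 0, with a median of 0.11, against -0.005 over all identifiers. HAPLN1 and CNMD fell below 0 there in some fits with a library left out. The share of all identifiers above 0 was not counted in any comparison. Identifiers of the same libraries are not independent.

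COL2A1 had 17.9, 20.9, 20.6 and 40.5 CPM in the connective tissue-like cells of Contra 1, 2, 3 and 5, against 12.8, 20.3, 12.3 and 31.8 CPM in those of Intact 1, 3, 4 and 5. Numbers 5 were highest in both groups. The log2 difference was 0.47 ± 0.29 (edgeR adjusted p = 0.831). COL9A2 had 2.80, 4.73, 2.41 and 9.42 CPM in Contra, against 0, 2.66, 8.28 and 13.2 CPM in Intact, where 0 UMIs allow up to 1.06 CPM in Intact 1. ACAN AMEX60DD004178 had 7.48, 10.7, 6.95 and 17.4 CPM in Contra, against 4.61, 10.3, 19.8 and 11.8 CPM in Intact. CNMD had 4.86, 5.58, 2.18 and 7.85 CPM in Contra, against 0.710, 3.67, 8.28 and 2.27 CPM in Intact. In all 3 genes the groups covered much the same range.

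The log2 differences of these genes were -0.05 ± 0.61 for COL9A2, -0.13 ± 0.34 for ACAN AMEX60DD004178 and 0.28 ± 0.44 for CNMD (adjusted p = 0.982 for CNMD and 1 for the other two). COL11A1 AMEX60DD018809 had -0.22 ± 0.20 (adjusted p = 0.910). MATN1 had 1.01 ± 0.93 (adjusted p = 0.917) and rested on Contra 5, with 5.80 CPM there against at most 0.845 CPM in any other library; without Contra 5 the difference was -0.20. The other 7 identifiers lay between -0.12 and 0.14.

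SOX9 and ACAN AMEX60DD007108 were also compared within epidermal-like cells, a comparison added after their levels were seen. Of 22346 identifiers 0 were called (0% called), 1021 (4.57%) had an unadjusted p under 0.05, none of them among the 8 cartilage identifiers tested, and DESeq2 called 14, none a cartilage gene. SOX9 had 22.6, 21.2, 23.4 and 37.6 CPM in Contra, against 7.66, 29.3, 20.6 and 15.9 CPM in Intact (log2 difference 0.48 ± 0.30, adjusted p = 0.987). ACAN AMEX60DD007108 had 17.8, 26.2, 21.5 and 28.4 CPM in Contra, against 69.7, 31.4, 30.9 and 22.2 CPM in Intact (-0.96 ± 0.44, adjusted p = 0.987). Both pairs of ranges overlapped. Of the 8, none had every Contra library above every Intact library, as 1.66% of all identifiers had, or below, as 1.01% had. COL9A1, too low to be tested here, had 1.46, 1.36, 2.08 and 1.06 CPM in Contra, against 0.531, 0.532, 0.985 and 0.730 CPM in Intact, groups that did not overlap on 60 and 29 UMIs in all. In endothelial-like cells, where it was likewise not tested, COL9A1 had 15 UMIs in Contra and 3 in Intact, also without overlap. The summed unnamed clusters were not tested either. There ACAN AMEX60DD007108 had 16.997 ± 3.75 CPM in Contra and 5.79 ± 3.23 CPM in Intact, without overlap. SOX9 had 2.88 ± 1.43 CPM in Contra and 1.22 ± 0.505 CPM in Intact, also without overlap (SD, n = 4 each). The share of all identifiers without overlap was not counted in the unnamed clusters, nor among identifiers too low to be tested. These cases without overlap are therefore given as values only.

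The same was done for HAPLN1 and CNMD in endothelial-like cells, also after their levels were seen. Of 15464 identifiers 0 were called (0% called), 1123 (7.26%) had an unadjusted p under 0.05, none of them among the 5 cartilage identifiers tested, and DESeq2 called 53, none a cartilage gene. HAPLN1 had 76.8, 88.0, 89.5 and 79.2 CPM in Contra, against 114, 91.6, 62.4 and 66.1 CPM in Intact (log2 difference 0.11 ± 0.17, adjusted p = 0.959). CNMD had 17.04, 13.2, 8.31 and 17.4 CPM in Contra, against 58.5, 4.94, 4.32 and 8.26 CPM in Intact (0.48 ± 0.68, adjusted p = 0.942). The high value of Intact 1 came from 22 UMIs in 5 of 54 cells. None of the 5 had every Contra library above every Intact library, as 2.38% of all identifiers had, or below, as 2.1% had.

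Related genes were read from the same fits. In all cells, 0 of 131 related identifiers were called, 23 had an unadjusted p under 0.05 (7.49% of all identifiers had), and 93 had a log2 difference above 0. The median was 0.31. Collagen processing had 22 of 25 above 0 and a median of 0.58 in all cells. Within connective tissue-like cells it had 15 of 23 above 0 and a median of 0.08, and none was called in either. The part of the cell mix in the all-cell values was not tested. The 8 smallest p-values belonged to BMPR1B (a BMP receptor, 0.58 ± 0.17), both rows of P4HA2 (a collagen prolyl hydroxylase, 0.51 ± 0.15 and 0.69 ± 0.22), P3H2 (another prolyl hydroxylase, 1.25 ± 0.41), TIMP1 (a protease inhibitor, 0.44 ± 0.15), ADAMTS5 (an aggrecanase, 0.95 ± 0.33), XYLT1 (which starts glycosaminoglycan chains, 0.69 ± 0.24) and GDF5 (0.50 ± 0.17). All had an edgeR adjusted p of 0.514.

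In connective tissue-like cells, 0 of 119 related identifiers were called, 7 had an unadjusted p under 0.05 (6.56% of all identifiers had), 61 were above 0, and the median was 0.02. The smallest p-value was that of SEC24D, a coat protein of collagen export, with 114 ± 6.92 CPM in Contra and 151 ± 17.4 CPM in Intact (SD, n = 4 each; log2 difference -0.40 ± 0.10, adjusted p = 0.661). Every Contra library lay below every Intact library for SEC24D, P3H1 (-0.24 ± 0.08) and P4HA1 (-0.24 ± 0.09), both collagen hydroxylases, and also for a second, low row of CHSY3 AMEX60DD042937. These are 4 of 119, against 2.14% of all identifiers. The reverse held for 2 of 119, TRPS1 AMEX60DDU001006694 and THBS4, against 2.85% of all identifiers; the CHSY3 row and THBS4 were named after their values were seen. TNMD, a tendon gene, had -0.88 ± 0.32, TRPS1 AMEX60DDU001006694 0.20 ± 0.08, CHPF -0.20 ± 0.08, CHSY3 AMEX60DD042937 -0.29 ± 0.12 and CREB3L2 0.22 ± 0.11, with adjusted p between 0.715 and 0.770. In epidermal-like cells 0 of 100 related identifiers were called and 17 had an unadjusted p under 0.05, against 4.57% of all identifiers. Every Contra library lay above every Intact library for 4 of 100, against 1.66% of all identifiers, and below for 0, against 1.01%. ADAMTS5 had 17.6 ± 2.29 CPM in Contra and 6.54 ± 3.64 CPM in Intact (SD, n = 4 each; log2 difference 1.48 ± 0.31, edgeR adjusted p = 0.853), and every Contra library was above every Intact library. MMP13 (a collagenase, 1.38), CEMIP (a hyaluronan-binding protein, 0.98), TIMP2 (1.33), PRELP (1.43), RUNX2 AMEX60DD032921 (0.64), LECT2 (0.97) and PTH1R (0.89) followed by p, with adjusted p up to 0.987. In endothelial-like cells 0 of 77 were called and 9 had an unadjusted p under 0.05, against 7.26% of all identifiers. Every Contra library lay above every Intact library for 7 of 77, against 2.38% of all identifiers, and below for 0, against 2.1%. CILP had 13.9 ± 1.44 CPM in Contra and 7.85 ± 2.39 CPM in Intact (SD, n = 4 each; 0.91 ± 0.23, adjusted p = 0.569). ADAMTS5 (1.00), CRTAP (0.45), CEMIP (-1.26), PTH1R (1.10), P4HB (0.37), PPIB (0.36) and MMP14 (0.29) followed, with adjusted p up to 0.654.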

How the data were processed

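Limb cells were sorted at 4C and profiled with the 10x 3' v3.1 chemistry, per the labels' protocols. The authors deposited raw UMI counts, whole numbers for each identifier in each cell, and kallisto 0.48.0 and Seurat 4.2.0 are named in the submitters' processing notes. Neither the genome build nor strand use is given in the sources used here. Cell names begin with the library, and so gave the group. The cartilage genes, the 7 lists of related genes and the markers were chosen with earlier results of these data known.

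Kept cells had at least 500 genes. Scrublet in scanpy 1.11.5 called 104 cells (0.307%), too few for a working caller, so doublets were kept, and an alternative left out 1361 cells with the highest scores. Counts scaled to 10000 per cell were clustered by Leiden (leidenalg 0.10.2, resolution 1, 20 neighbours, 30 components, 2000 variable genes, no correction for library). Without the exclusion, 16 of the 35 excluded identifiers would have been variable genes. Clusters were named "-like" from fixed markers by a scoring set after the data were seen. It asked for at least 3 markers raised, that is at 20 CPM and 4 times the lower quartile over clusters. It also asked for no stronger signal of another class, except within the connective family. With at least 50% of the connective markers raised, the names tendon, cartilage and bone were not considered, even where more of their markers were raised. Of 33 clusters, 7 stayed unnamed. CPM are UMIs scaled to a common total per library, class or cluster.

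Counts summed per library were tested with edgeR 4.0.16 (quasi-likelihood, TMM, filterByExpr, Benjamini-Hochberg over all identifiers tested), and DESeq2 1.42.0 was an alternative, both in R 4.3.3. The edgeR steps were tested on simulated data for the all-cell comparison. They called 7 of 100 identifiers changed 2-fold and 89 of 100 changed 4-fold, with 4 false calls among 37305 identifiers. Most differences of about 2-fold would thus go uncalled in all cells, and the lack of a call does not show that levels were equal. The simulation gave every identifier the same dispersion and no difference in cell mix between libraries. Its counts need not hold for identifiers that vary more between libraries, such as COL2A1. Named from the related lists were the 8 identifiers with the smallest p per comparison and the 8 with the highest share in the COL2A1 cluster, with the 5 identifiers most like COL2A1 and SOX9 over clusters. MMP13, LECT2, CILP, TIMP1, THBS4, BMPR1B and P4HB each have several identifiers. A Contra against Intact value given by such a symbol alone belongs to a single identifier, and not to all of that symbol. Other alternatives were size factors, no filter, each library left out, replicate blocks, doublets, all deposited cells and other clusterings.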

Additional observations from a re-analysis of the deposited data

Results flagged for a closer look

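In groups of 4 libraries, the library at the end of its group was set against the others by Dixon's ratio of the gap to the range, with its 95% critical value as the limit. Of 50 groups, 7 passed it. Among independent groups of normal values, chance passes about 1 in 20. These groups share libraries and UMIs, so that the 7 cannot be set against that rate. In all cells, COL11A1 AMEX60DD031831 was lowest in Contra 5, at 54.8 CPM, with 88.5 CPM in the next Contra library. COL2A1 was highest in Intact 3, at 50.5 CPM, with 7.43 CPM in the next Intact library. MATN1 was highest in Contra 5, at 2.45 CPM, with 0.621 CPM in the next Contra library.

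In connective tissue-like cells, COL2A1 was highest in Contra 5, at 40.5 CPM, with 20.9 CPM in the next Contra library. MATN1 was highest there too, at 5.80 CPM, with 0.686 CPM in the next, and 42 of its UMIs came from 1 cell. In epidermal-like cells, SOX9 was highest in Contra 5, at 37.6 CPM, with 23.4 CPM in the next Contra library. In endothelial-like cells, CNMD was highest in Intact 1, at 58.5 CPM, with 8.26 CPM in the next Intact library.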

How the results depend on the processing

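In all cells, the count of cartilage identifiers called ran between 0 and 3 as each library was left out in turn, reaching 3 without Intact 3, and was 0 under every other alternative; in connective tissue-like, epidermal-like and endothelial-like cells it was 0 under every alternative run. Of 370 fold changes under alternatives, for 23 identifiers and classes, 339 kept their direction and side of the threshold, 28 turned and 3 came past it. The cause of the turns was not tested. In all cells, COL9A2 turned to 0.0039 with no filter on low counts and 0.061 without the highest doublet scores, with a range of -0.24 to 0.14 over libraries left out. ACAN AMEX60DD007108 turned to 0.038 with a term for numbers 1 and 3 (-0.41 to 0.46 over libraries left out). Over libraries left out, COL11A1 AMEX60DD018809 ran between -0.017 and 0.51 and SOX9 between -0.77 and 0.016. In connective tissue-like cells the ranges were -0.40 to 0.21 for ACAN AMEX60DD004178, -0.53 to 0.33 for COL9A2 and -0.20 to 1.36 for MATN1. COL9A2 was 0.14 there without the highest doublet scores, COL11A1 AMEX60DD018809 was 0.22 at resolution 0.5, and CNMD was -0.071 with cluster 0 added, a choice made after seeing the data. In endothelial-like cells HAPLN1 ran between -0.043 and 0.24, and CNMD between -0.16 and 1.52, with -0.27 in DESeq2.

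Numbers 1, 3 and 5 occur in both groups, and the labels do not say whether a number stands for a shared animal or batch. Same-numbered libraries deviated together with r = -0.31, 0.76 and 0.49 in all cells, which cannot settle it. The main fits did not pair the libraries. With the replicate block the identifiers called were 0 in all, 2 in connective tissue-like, 0 in epidermal-like and 57 in endothelial-like cells, of which 0 were cartilage genes. Under the block ACAN AMEX60DD004178 turned to 0.088, COL9A2 to 0.11 and COL11A1 AMEX60DD018809 to 0.035 in connective tissue-like cells, and HAPLN1 to -0.010 and CNMD to -0.091 in endothelial-like cells. No paired analysis was possible in the COL2A1 cluster because 1 library of each group had at least 10 cells of it; alternatives of that test were likewise not run.

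The share of cells with at least 3 cartilage genes was 0.108 percentage points higher in Contra, 0.378 at 4000 UMIs drawn, 1.07 for at least 2 genes and 1.60 with all UMIs (0.0579 to 0.141 over libraries left out). The bone-like cluster's share of COL2A1 UMIs was 57.7% without the highest doublet scores and 48.4% to 61.5% over libraries left out. Other counts of all identifiers called moved as well: with no filter 12 in epidermal-like and 373 in endothelial-like cells, 3 in connective tissue-like cells with a term for numbers 1 and 3, and 17 in epidermal-like cells without Intact 3. All deposited cells were not run within classes, since cells under 500 genes were not clustered.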
